A study of Mus musculus with 30 samples.

Results

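Bone marrow (BM) RNA of obese *Ob/Ob* recipients treated with a GLP-1R agonist was compared with BM RNA of lean WT recipients, to ask what still set the treated obese marrow apart from lean marrow. The comparison rests on 6 of the 30 samples of the series, 3 libraries of the agonist group (GLP1) and 3 libraries of the lean group (WT), chosen by their labels, and it covers all 13353 genes of the BM count table. *Ob/Ob* mice (C57BL/6J) lack leptin and become obese, and WT recipients were C57BL/6 mice. All recipients had been lethally irradiated and given equal numbers of CD45.2+ BM cells of Shp2E76K/+;LysM-Cre+ donors, which carry an activating allele (E76K) of the phosphatase SHP2, and of CD45.1+ BM cells of Boy/J mice. The Cre is driven by the lysozyme 2 gene and acts mainly in myeloid cells. From 8 weeks after transplantation, the GLP1 group received beinaglutide subcutaneously at 3 mg/kg for 30 days. The labels give WT recipients no injection, so the effects of obesity, the agonist and the injections cannot be told apart between GLP1 and WT. In addition, 3 further groups of *Ob/Ob* recipients, with 3 libraries each, are given beside them, namely vehicle (Vehicle), an anti-IL-17A antibody (antiIL17A) and both agents (Combo). The labels put all mice at 12 to 14 weeks of age and in a single batch, with both sexes used, and name 3 mice per group. They do not say at which step this age was reached. The study's methods give recipients of its competitive transplants an age of up to 12 weeks at irradiation. Treatment from 8 weeks after transplantation for 30 days therefore places harvest beyond the labelled age. The donor cells are described for the experiment and not for single samples.

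GLP-1 is an incretin, a gut hormone that raises insulin release and lowers appetite through a G protein-coupled receptor, and agonists of this receptor are used against diabetes and obesity. BM makes the blood cells, with neutrophils and their precursors as its most abundant cells and with erythroblasts, monocytes and B cell precursors beside them. Interferons switch on a broad set of antiviral genes in most of these cells, and IL-17A is a T cell cytokine that drives granulocyte production and inflammatory gene expression.

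BM libraries of both groups held 31086184 to 39925495 counts on genes, and the 10 most counted genes took 14.2% to 16% of them in WT and 11.1% to 11.2% in GLP1. Markers of the labelled tissue were present in all 6 libraries, among them the neutrophil granule gene *Ngp* (481359 to 531342 normalized counts) and the erythroid gene *Slc4a1* (15044 to 44555), whereas *Lep*, *Glp1r* and the globin genes were not analysed here. A normalized count is a count scaled to the average of the effective sizes of the 15 BM libraries. WT library 1 stood apart in ribosomal precursor RNA, with 669464 normalized counts of *Rn45s* against 218220 and 250446 in the other WT libraries. *Xist*, which marks female cells, was at 0 to 5.62 normalized counts in the 6 libraries of WT and GLP1, with the Y-linked gene *Ddx3y* at 1489 to 2015. In Vehicle, *Xist* was at 6339 to 6712 and *Ddx3y* at 695 to 743, and in Combo *Xist* was at 3528 to 3657 and *Ddx3y* at 147 to 177. Values of Vehicle and Combo below therefore come from libraries with other sex-linked transcripts than GLP1 and WT, and the part of this difference in them was not tested. *Lyz2*, the gene that drives the Cre, had 444237, 448843 and 453100 normalized counts in WT and 109169, 109856 and 109086 in GLP1 (log2 fold change -2.04 ± 0.02, SE), and its mean in Vehicle was 120565. The shares of donor, competitor and recipient cells in these libraries were not measured here. *Lyz2* and *Rn45s* were singled out after their values were seen.

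Differential expression was called at a false discovery rate (FDR, Benjamini-Hochberg) below 0.05 and a log2 fold change beyond 1 in either direction, in 1 edgeR quasi-likelihood fit of all 15 BM libraries. Between GLP1 and WT, 1965 genes were called (14.7% of the genes tested), of which 814 (6.1%) were higher and 1151 (8.62%) lower in GLP1. These shares of all genes are the background for the counts of list members called higher or lower below. Past the FDR alone were 9970 genes (74.7%; 36.6% higher and 38.1% lower), and the 3 values of one group lay wholly above or below the 3 of the other for 9955 genes (74.6%), so that separation of the groups by itself sets few genes apart here. The spread between replicates was small, with a biological coefficient of variation of 3.51%, and p-values measure only the spread between these libraries. WT library 1 stood further apart, with a chi-square per degree of freedom of 42.1 against WT library 2 and 32.1 against WT library 3. Between WT libraries 2 and 3 it was 3.16, and between GLP1 libraries it was 2.451 to 2.465. Whether each library holds RNA of a separate mouse was not tested. Against the same WT libraries, Vehicle had 2598 called genes (19.5%). GLP1 differed directly from Vehicle by 2228 genes (16.7%), from antiIL17A by 779 (5.83%) and from Combo by 1757 (13.2%).

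**Figure D1:**
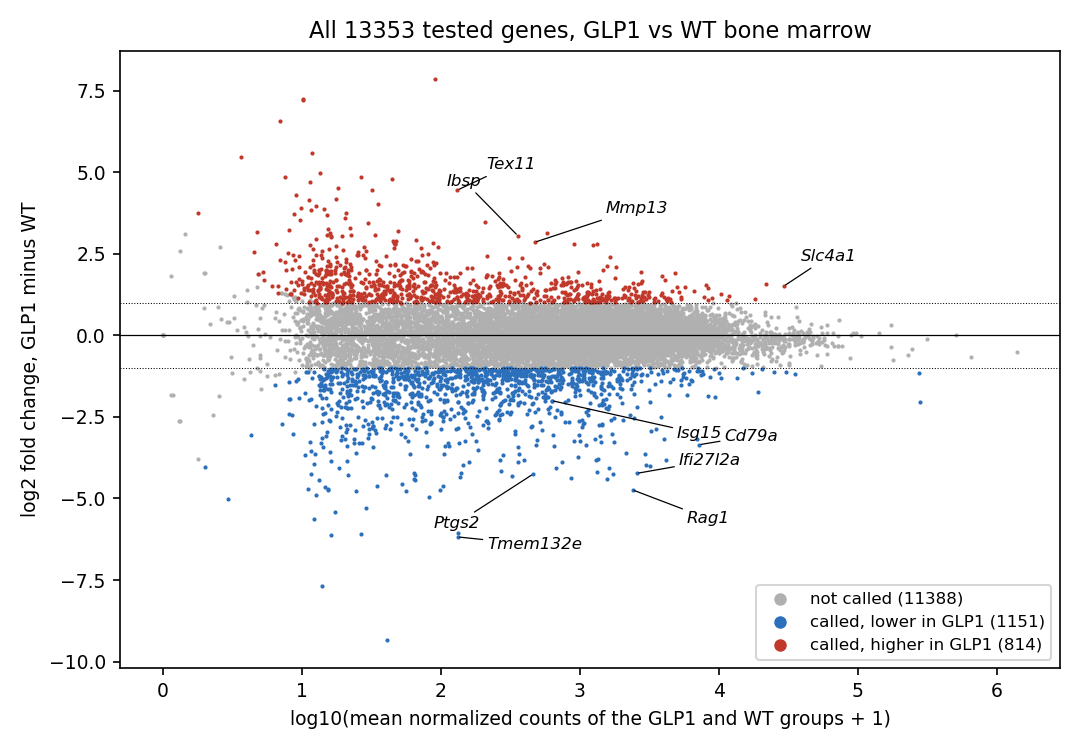
Each point is 1 of 13353 genes, with the log10 of the mean normalized counts of GLP1 and WT plus 1 on the x axis and the log2 fold change of GLP1 minus WT on the y axis, and dotted lines at 1 and -1. Red points are the 814 genes called higher and blue points the 1151 called lower, and B lineage genes such as *Rag1* (-4.74) and *Cd79a* (-3.35) lie far below the cloud at high counts.

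The largest separation from lean marrow was in genes of B cell precursors. Of the 12 early B cell genes tested, 11 fell in GLP1, against 8.62% of all genes called lower. The median log2 fold change of the list was -3.51, against a median of -0.0058 over all genes. *Rag1*, which cuts immunoglobulin gene segments for recombination (chr2:101638282-101649501, minus strand, GRCm38), had 4924, 4419 and 4503 normalized counts in WT and 160, 179 and 181 in GLP1. The lowest WT library was thus far above the highest GLP1 library, though the groups did not overlap for 74.6% of all genes. The difference came to a 26.6-fold lower mean (log2 fold change -4.74 ± 0.07, SE, edgeR adjusted p = 7.64e-38). Its partner *Rag2*, on the same chromosome at 101624718 to 101632529, had 675, 588 and 573 normalized counts in WT and 28.1, 28.9 and 34.7 in GLP1 (-4.33 ± 0.17). *Dntt*, which adds nucleotides at the joints of these segments, was at 2462, 2491 and 2550 in WT and at 142, 122 and 146 in GLP1 (-4.20 ± 0.07).

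*Vpreb3* was lower as well, and so were *Igll1* and *Vpreb1* of the surrogate light chain, which lets a precursor B cell test its heavy chain. *Vpreb3* had 2686, 3228 and 3079 normalized counts in WT and 140, 145 and 140 in GLP1 (log2 fold change -4.40 ± 0.08, SE). For *Igll1* the values were 1632, 1919 and 1747 in WT and 211, 214 and 209 in GLP1 (-3.06 ± 0.08), and *Vpreb1* fell by 3.24 on the log2 scale. The transcription factors of the lineage followed the same order of libraries. *Ebf1*, which commits cells to the lineage, was at 1885, 1796 and 1770 in WT and at 148, 133 and 132 in GLP1 (-3.72 ± 0.07). *Pax5*, which maintains B cell identity, was at 832, 844 and 981 in WT and at 80.6, 76.3 and 101 in GLP1 (-3.37 ± 0.11). No GLP1 library reached the lowest WT library for any of these genes, though the groups did not overlap for 74.6% of all genes.

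Signaling parts of the B cell receptor had the highest counts in the list. *Cd79a* (chr7:24897381-24902197, plus strand, GRCm38) had 12657, 13561 and 13291 normalized counts in WT and 1291, 1298 and 1276 in GLP1, a 10.2-fold lower mean (log2 fold change -3.35 ± 0.03, SE, edgeR adjusted p = 2.68e-44). *Cd79b*, its partner in the receptor, had 12082, 13014 and 12686 in WT and 1363, 1389 and 1442 in GLP1 (-3.17 ± 0.04). The member that was not called is *Il7r*, the receptor for the growth factor IL-7, which T cells carry too, with 1818, 1509 and 1519 in WT and 892, 959 and 944 in GLP1 (-0.80 ± 0.07). In RNA of whole marrow, fewer cells of a type and less RNA per cell cannot be told apart.

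**Figure D2:**
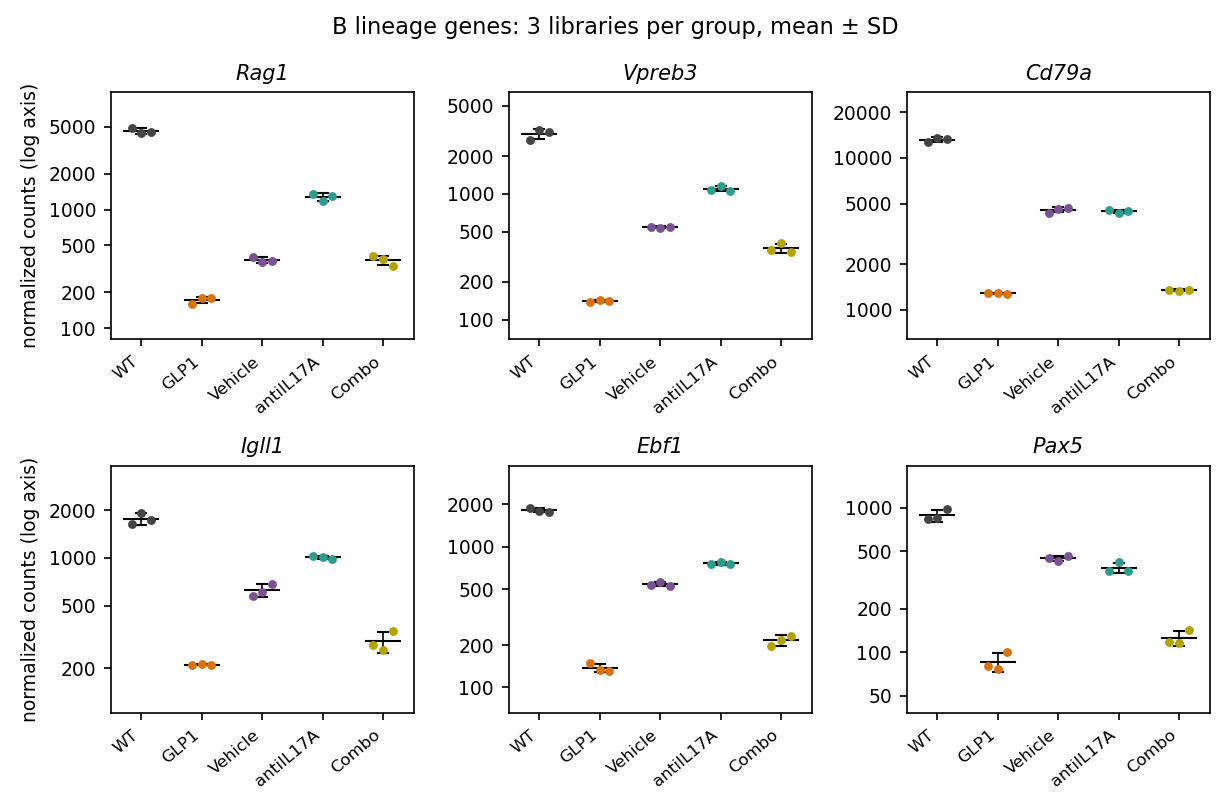
Normalized counts on a log axis for 6 B lineage genes in the 5 groups, with points for the 3 libraries of a group and bars for mean ± SD. GLP1 is the lowest group for *Rag1*, *Vpreb3*, *Igll1*, *Ebf1* and *Pax5*, Vehicle lies between it and WT, and for *Cd79a* GLP1 lies close to Combo.

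The other *Ob/Ob* groups lay between WT and GLP1 for most early B cell genes. For *Cd79a* the means were 13170 in WT, 4552 in Vehicle, 4438 in antiIL17A, 1346 in Combo and 1288 in GLP1. GLP1 was below Vehicle by 1.82 on the log2 scale (edgeR adjusted p = 1.18e-35), whereas its difference from Combo was -0.06 ± 0.04 (SE). For *Rag1* the means were 4615 in WT, 1283 in antiIL17A, 376 in Vehicle, 375 in Combo and 173 in GLP1. In the direct tests of the early B cell list, 9 of 12 members were called lower in GLP1 than in Vehicle, 11 of 12 lower than in antiIL17A, and 3 lower and 1 higher than in Combo, against 9.08%, 3.41%, 4.59% and 8.57% of all genes. *Rag2* did not differ between GLP1 and Vehicle beyond its error (log2 difference 0.16 ± 0.28, SE).

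Genes of mature B and plasma cells were split. Of 9 tested, 5 fell (median log2 fold change -2.27), against 8.62% of all genes called lower. *Ms4a1*, which encodes CD20, had 6546, 5112 and 5275 normalized counts in WT and 344, 380 and 364 in GLP1 (-3.96 ± 0.11, SE), and the IgE receptor gene *Fcer2a* had 1355, 1395 and 1447 in WT and 86.2, 115 and 82.8 in GLP1 (-3.87 ± 0.10). *Cr2* and *Cd22* fell by 3.66 and 2.53 on the log2 scale. Plasma cell genes were less far apart. *Jchain*, which joins antibodies into polymers, had 31163, 29606 and 30105 in WT and 18400, 18331 and 17946 in GLP1 (-0.73 ± 0.03), *Xbp1* had a log2 fold change of -0.23 and *Prdm1* of 0.68, none of them called. *Mzb1* fell by 2.27 on the log2 scale, and 57.2% of its exons overlap another gene, whose reads were counted for both. Against Vehicle, 3 of the 9 were called higher in GLP1 and 2 lower (median log2 difference -0.38), against 7.6% and 9.08% of all genes. *Fcer2a* and *Jchain* were higher in GLP1 than in Vehicle (log2 differences 1.65 and 1.40), where their means were 30.5 and 6924. *Ms4a1* and *Cd22* were lower than in Vehicle (-1.58 and -1.24).

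MHC class II genes, which present antigen on B cells, dendritic cells and macrophages, were lower too. Of 8 members, 6 fell (median log2 fold change -1.81), against 8.62% of all genes called lower. *H2-Aa* had 14117, 14838 and 15062 normalized counts in WT and 4128, 3846 and 3988 in GLP1 (-1.88 ± 0.03, SE). Its regulator *Ciita* had 809, 883 and 922 in WT and 233, 290 and 223 in GLP1 (-1.80 ± 0.10), and *H2-Ob*, a class II gene of B cells, fell by 2.76. The loading gene *H2-DMa* missed the fold limit narrowly (-0.999 ± 0.05), and *H2-DMb1* had a value of -0.71. Summed over the list, WT libraries held 1989 to 2159 CPM (counts scaled to the library size) and GLP1 libraries 605 to 638, with Vehicle at 1422 to 1475. The early B cell list held 1400 to 1453 CPM in WT and 147 to 148 in GLP1, and its part in the MHC class II difference was not tested.

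Of 10 dendritic cell genes, 6 fell and 1 rose (median log2 fold change -1.31), against 8.62% and 6.1% of all genes. *Cd209a*, a lectin of monocyte-derived dendritic cells, had 287, 258 and 244 normalized counts in WT and 18.7, 14.0 and 9.2 in GLP1 (-4.21 ± 0.22, SE), with a mean of 0.716 in Vehicle. *Siglech* of plasmacytoid dendritic cells was at 862, 916 and 964 in WT and at 328, 298 and 241 in GLP1 (-1.65 ± 0.08). *Ly6d*, which lymphoid precursors share, fell by 3.19, *Clec9a* by 1.80, *Ccr9* by 1.34 and *Batf3* by 1.28. In the other direction, the transcription factor gene *Zbtb46*, which erythroid precursors and endothelium also express, rose from 185, 199 and 199 to 457, 477 and 508 (1.31 ± 0.10).

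Interferon-stimulated genes lay below lean marrow in GLP1, although Vehicle lay far above it. Of 22 genes, 15 fell and none rose, with a median log2 fold change of -1.90 against WT. Past the FDR 21 of 22 were lower, against 38.1% of all genes. Against Vehicle, all 22 were called lower (median log2 difference -5.85, with 9.08% of all genes called lower). In the sum of the list, antiIL17A and Combo lay below WT too. WT libraries held 961 to 978 CPM, antiIL17A 633 to 645, Combo 561 to 571 and GLP1 454 to 463. Against antiIL17A, 6 of 22 were called lower and 0 higher (median -0.59, with 3.41% of all genes called lower). Against Combo, 3 were lower and 2 higher (median -0.02), against 4.59% and 8.57% of all genes. The regulatory sequence shared by many interferon-stimulated genes is the interferon-stimulated response element, to which transcription factors activated by interferons bind. Its core, searched as a pair of GAAA separated by any 2 bases on both strands of the 250 bases before the start of transcription, was in 6 of 16 promoters of this list and 9 of 11 of the interferon-gamma list with a window in the RefSeq table, against 821 of 27025 promoters (3.04%) in all. Matches can overlap one another, and a match is only a description of the letters. The windows of 4 genes that fell are shown because they carry this element, read 5′ to 3′ on the strand of the gene (RefSeq, GRCm38.p6), with the matches in capitals. They are *Isg15* (chr4:156200819-156201068, minus strand), *Ifit1* (chr19:34640639-34640888, plus strand), *Oas1a* (chr5:120907526-120907775, minus strand) and *Gbp2* (chr3:142620413-142620662, plus strand).
Isg15: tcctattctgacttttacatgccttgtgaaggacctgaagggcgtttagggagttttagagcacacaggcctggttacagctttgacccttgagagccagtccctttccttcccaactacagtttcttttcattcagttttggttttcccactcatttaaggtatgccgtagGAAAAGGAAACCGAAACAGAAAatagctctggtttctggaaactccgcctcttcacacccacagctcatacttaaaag
Ifit1: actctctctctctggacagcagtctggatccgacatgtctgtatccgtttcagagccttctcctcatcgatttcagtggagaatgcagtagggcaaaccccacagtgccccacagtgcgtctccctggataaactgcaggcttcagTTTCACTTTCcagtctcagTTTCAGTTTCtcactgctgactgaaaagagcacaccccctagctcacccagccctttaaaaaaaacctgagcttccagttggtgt
Oas1a: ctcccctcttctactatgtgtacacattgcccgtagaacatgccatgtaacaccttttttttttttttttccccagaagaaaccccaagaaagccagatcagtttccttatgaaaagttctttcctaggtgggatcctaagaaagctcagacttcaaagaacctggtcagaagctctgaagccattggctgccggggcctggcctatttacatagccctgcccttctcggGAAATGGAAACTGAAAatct
Gbp2: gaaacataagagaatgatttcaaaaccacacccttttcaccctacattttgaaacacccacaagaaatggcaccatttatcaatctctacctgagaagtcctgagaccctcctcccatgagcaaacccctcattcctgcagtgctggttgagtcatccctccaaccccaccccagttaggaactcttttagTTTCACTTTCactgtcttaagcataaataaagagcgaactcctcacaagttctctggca
*Oasl2*, *Irf7* and *Cxcl9* fell too and hold no such match in their windows, and neither does *Ifit2*, which was not called.

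*Isg15*, a ubiquitin-like modifier, had 958, 1040 and 1014 normalized counts in WT and 251, 268 and 229 in GLP1 (log2 fold change -2.00 ± 0.05, SE, edgeR adjusted p = 2.77e-28). In Vehicle its mean was 32771, so the GLP1 libraries lay below both groups, with a direct log2 difference from Vehicle of -7.03 ± 0.05. *Oas1a*, an RNA sensor, had 1164, 1223 and 1186 in WT and 127, 103 and 108 in GLP1 (-3.40 ± 0.06), and *Oasl2* of the same family fell by 3.37. *Ifit1*, which binds viral RNA, had 403, 292 and 357 in WT and 50.6, 47.3 and 59.3 in GLP1 (-2.75 ± 0.13). Among the regulators, *Irf7* had 2075, 2327 and 2206 in WT and 690, 578 and 621 in GLP1 (-1.81 ± 0.05). *Irf9* (-0.93), *Cmpk2* (-0.49), *Rsad2* (-0.38), *Ifih1* (-0.26) and *Stat2* (-0.24) were past the FDR without passing the fold limit. *Ifit2* went the other way, with 957, 903 and 911 in WT and 1067, 1146 and 1052 in GLP1 (0.24 ± 0.04), and it too was far below its Vehicle mean of 21418.

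**Figure D3:**
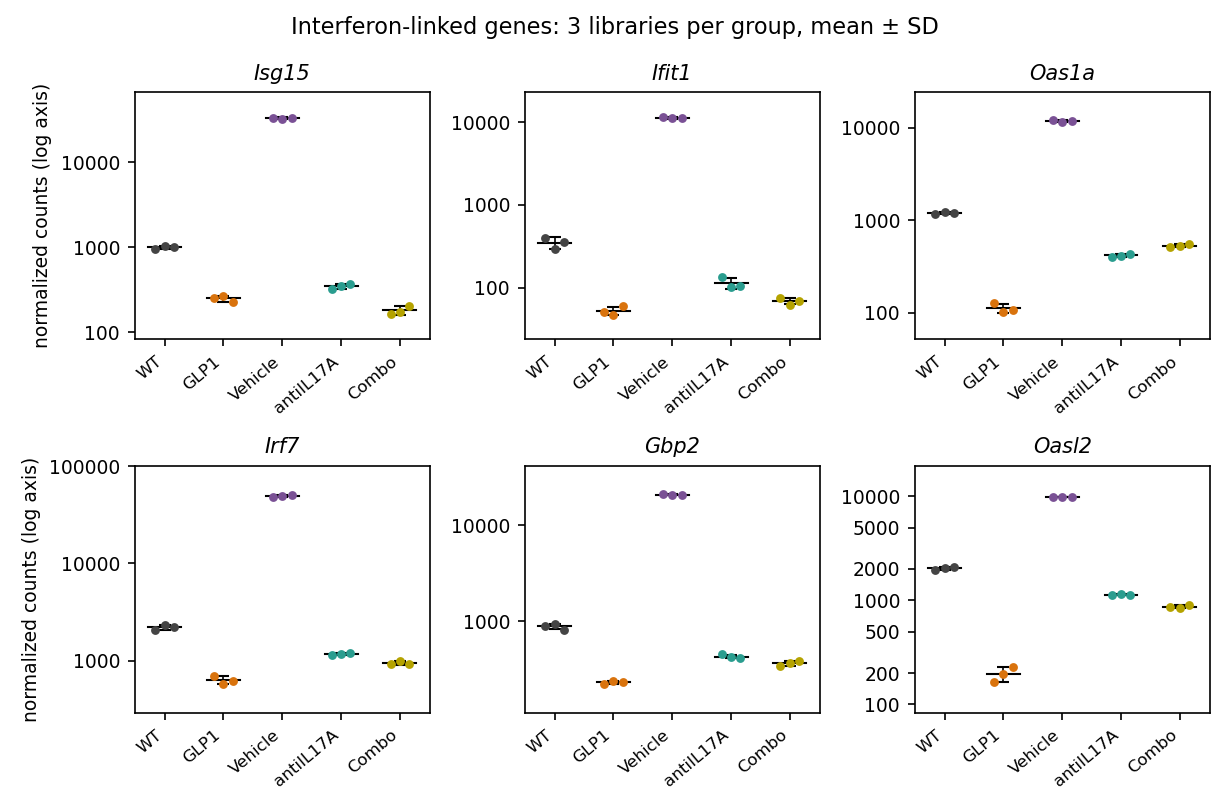
Normalized counts on a log axis for 6 interferon-linked genes in the 5 groups, with points for the 3 libraries of a group and bars for mean ± SD. Vehicle is the highest group in every panel (*Isg15*, mean 32771), and the 3 GLP1 libraries lie below the 3 WT libraries for all 6 genes. GLP1 and WT did not overlap for 74.6% of all genes.

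Of the 16 genes known best for induction by interferon-gamma, 5 fell (median log2 fold change -0.61). Lower past the FDR were 13 of the 16 and higher 1, against 38.1% and 36.6% of all genes. *Gbp2*, a GTPase that attacks intracellular microbes, had 893, 933 and 819 normalized counts in WT and 221, 238 and 234 in GLP1 (-1.93 ± 0.06, SE), against a Vehicle mean of 20802. *Gbp3*, *Cxcl9*, *Gbp5* and *Iigp1* fell by 1.58, 1.54, 1.44 and 1.23 on the log2 scale. The inducible nitric oxide synthase gene *Nos2* is the 1 member called higher, on 0 counts in each WT library and 4, 1 and 0 counts in GLP1, which is too few for a fold, and the call was lost without WT library 1, WT library 2 or GLP1 library 1. *Cxcl11* had 0 counts in all 6 libraries. *Ifng* itself had 27.7, 26.8 and 29.1 normalized counts in WT and 9.37, 8.76 and 12.3 in GLP1 (-1.46 ± 0.37), and 25.9% of its exons overlap another gene.

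Of 13 receptor and signaling genes of the interferons, 2 fell (median -0.22). Past the FDR alone 10 were lower and 3 higher, against 38.1% and 36.6% of all genes. *Irf3*, a transcription factor that turns on interferon genes, was past the FDR just short of the fold limit, with 1873, 1868 and 1951 normalized counts in WT and 972, 952 and 1045 in GLP1 (-0.94 ± 0.05). Besides *Ifng*, *Irf8*, which directs monocyte and dendritic cell development, fell from 8076, 8577 and 8222 to 3901, 3936 and 3901 (log2 fold change -1.08 ± 0.03, SE). The receptor genes *Ifnar1*, *Ifnar2*, *Ifngr1* and *Ifngr2* had log2 fold changes of -0.09, 0.33, 0.34 and -0.10. In MHC class I and the immunoproteasome, 1 of 12 genes fell, *Psmb9* (-1.19 ± 0.03), and the median was -0.70. Lower past the FDR were 10 of the 12 and higher 0, against 38.1% and 36.6% of all genes. *B2m*, the light chain of class I, had 40688, 41800 and 41369 normalized counts in WT and 22891, 23082 and 22688 in GLP1 (-0.85 ± 0.02), with a Vehicle mean of 131058. *Tap1* and *Tap2*, which carry peptides to class I, did not pass the FDR (-0.05 ± 0.03 and 0.06 ± 0.03).

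IL-17 genes, the other target of the study's treatments, were mostly near WT, with 2 of 11 called, both higher, and a median of 0.07. *Il17a* had 0 counts in all 6 libraries, which allows up to 3 counts per library, and *Il22* had 0 as well. *Il17f*, a relative of IL-17A, was called higher on 2, 0 and 1 counts in WT and 7, 10 and 3 in GLP1, at least 2.09-fold higher against a floor of 3 counts per library, and the call was lost without GLP1 library 2. *Il17ra*, the shared receptor, had 10896, 11390 and 11350 normalized counts in WT and 12874, 12498 and 12462 in GLP1 (log2 fold change 0.17 ± 0.02, SE), and *Lcn2*, a granule gene that IL-17A induces, had a value of 0.07 ± 0.03. *Mmp13*, a collagenase, is the other gene of the list that rose. It had 128, 100 and 115 in WT and 793, 883 and 812 in GLP1, a 7.21-fold higher mean (2.85 ± 0.09, edgeR adjusted p = 6.43e-28). The Vehicle mean was 931, and GLP1 differed from it by -0.17 ± 0.07 on the log2 scale. *Il17re* and *Il17rc* were not analysed here.

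Inflammatory cytokines and chemokines did not move as 1 group. Of 13 genes of the IL-1, IL-6 and IL-10 families, 4 fell and 2 rose (median -0.57). *Il1b* had 5166, 5031 and 5034 normalized counts in WT and 1807, 1794 and 1872 in GLP1 (log2 fold change -1.48 ± 0.04, SE), and it stayed above its Vehicle mean of 564. Its antagonist gene *Il1rn* had 2917, 2838 and 2818 in WT and 476, 483 and 473 in GLP1 (-2.58 ± 0.05). The signaling receptor *Il1r1* went the other way, with 139, 114 and 121 in WT and 642, 623 and 663 in GLP1 (2.36 ± 0.10), above the Vehicle mean of 231. *Il18* and *Casp1* fell by 1.44 and 1.15. *Il10* was called higher on 3, 4 and 3 counts in WT and 5, 11 and 10 in GLP1 (1.30 ± 0.60, edgeR adjusted p = 0.049). *Il6* was higher past the FDR under the fold limit, with 30.3, 30.7 and 43.1 in WT and 89.1, 46.5 and 67.4 in GLP1 (0.97 ± 0.23).

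Of 13 chemokine genes, 4 fell, against 8.62% of all genes called lower. The list median was -0.71, or -0.17 without WT library 1. It was -0.21 with at least 10 counts in every library or with only the 6 libraries compared. *Ccl6*, made by myeloid cells, had 26341, 22176 and 23511 normalized counts in WT and 10626, 11090 and 10892 in GLP1 (log2 fold change -1.14 ± 0.05, SE). *Ccl2*, which draws monocytes, had 66.7, 47.6 and 56.0 in WT and 23.4, 35.1 and 25.5 in GLP1 (-1.01 ± 0.20), against a Vehicle mean of 3054. That call lies at the fold limit, and it was lost without WT library 1, GLP1 library 1 or GLP1 library 3 (-0.96 to -0.87). *Ccl22* (-1.14) and *Ccl7*, at least 2.09-fold lower, rest on a few counts per library, and the call of *Ccl22* was lost without WT library 3, GLP1 library 1 or GLP1 library 2 (-0.99 to -0.93). *Ccl3* (-0.11), *Ccl4* (-0.20), *Ccl5* (0.08) and *Cxcl1* (-1.85 ± 1.28) did not pass the FDR, and *Cxcl2* had a value of 0.22 ± 0.06. In the TNF and NF-kB list, 3 of 15 fell (median -0.15), against 8.62% of all genes. They were *Nfkbie* (-1.56), *Nfkb2* (-1.33) and *Relb* (-1.23), which belong to the NF-kB family or hold it back. *Tnf* itself had 767, 725 and 742 in WT and 1083, 1054 and 1014 in GLP1 (0.50 ± 0.05), and *Socs3* had a value of 0.28.

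Acute phase and arginine genes showed 2 members up and 2 down of 9. The median was -0.10, and it turned to 0.09 when at least 10 counts were required in every library and to 0.01 without WT library 3. *Saa3*, an acute phase protein, was at 25.1, 14.9 and 23.7 normalized counts in WT and at 46.9, 45.6 and 63.4 in GLP1 (log2 fold change 1.27 ± 0.17, SE), and both groups were far below the Vehicle mean of 73246. *Slc7a2*, an arginine transporter, rose by 1.06 ± 0.23, and the call was lost without GLP1 library 1 (0.89). *Arg2*, which shares 28.1% of its exon length, fell by 1.5 and *Chil1* by 1.31. *Arg1* did not pass the FDR (-0.31 ± 0.33) and *Hp* had a value of -0.10. Of 8 immune checkpoint genes (median 0.14), *Ctla4* rose from 49.3, 44.6 and 48.4 to 143, 131 and 122 (1.47 ± 0.16) and *Havcr2* by 1.07, with Vehicle means of 1015 and 517. The call of *Havcr2* was lost without GLP1 library 1 (0.93).

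Neutrophil genes differed less from lean marrow than B cell or interferon genes did in the size of their values. None of the 8 primary granule genes (median -0.06) and none of the 12 late granule genes (median -0.49) was called. *Mpo*, the peroxidase of the primary granules, had 84517, 95774 and 91982 normalized counts in WT and 95348, 94647 and 95224 in GLP1 (log2 fold change 0.07 ± 0.03, SE). *S100a9*, the most counted gene of the late list, had 1674420, 1629280 and 1659110 in WT and 1164720, 1152520 and 1154180 in GLP1 (-0.52 ± 0.02), and the collagenase gene *Mmp8* came nearest to the fold limit at -0.91 ± 0.02. *S100a8* was at 980421 in WT library 1 and at 675545 and 761985 in the other WT libraries. Of 11 genes of mature neutrophils, 2 fell (median -0.39). One of them was *Ptgs2*, the inducible cyclooxygenase, which went from 1078, 795 and 754 to 50.6, 57.8 and 27.6 (-4.25 ± 0.17, edgeR adjusted p = 6.87e-15), a 19.0-fold lower mean, and GLP1 did not differ from Vehicle there beyond the error (-0.19 ± 0.27).

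Monocyte and macrophage genes went both ways, with 4 of 16 fallen and 1 risen (median -0.08). *Cx3cr1*, a receptor of patrolling monocytes, had 1336, 1259 and 1315 normalized counts in WT and 339, 287 and 376 in GLP1 (log2 fold change -1.97 ± 0.07, SE). *Ccr2*, the receptor for *Ccl2*, had 10359, 8206 and 8543 in WT and 3211, 3262 and 3227 in GLP1 (-1.48 ± 0.08), and *Fcgr1* and *Ms4a6c* fell by 1.49 and 1.27. *Ms4a6c* shares 53.1% of its exon length. *Cd163*, the hemoglobin scavenger receptor of macrophages, rose from 199, 183 and 182 to 519, 564 and 568 (1.54 ± 0.10). The macrophage genes *C1qa*, *Vcam1* and *Mrc1* were within 0.21 of WT on the log2 scale. Of 11 genes of mast cells, basophils and eosinophils, 6 fell (median -1.08). All 11 were lower past the FDR, against 38.1% of all genes. *Mcpt8*, a basophil protease, had 8602, 9676 and 9638 in WT and 3604, 3568 and 3484 in GLP1 (-1.39 ± 0.03), and *Fcer1a* and *Siglecf* fell by 1.45 and 1.36.

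Of 17 T and NK cell genes, 4 fell (median -0.21). Past the FDR alone 5 were higher and 9 lower, against 36.6% and 38.1% of all genes. The T cell receptor genes *Cd3d*, *Cd3e* and *Cd3g* had log2 fold changes of -0.05, 0.41 and -0.21, and *Cd8a* had 411, 381 and 375 normalized counts in WT and 607, 624 and 559 in GLP1 (0.62 ± 0.09, SE). Among those that fell were *Gzma*, a protease of killer cells, with 869, 880 and 904 in WT and 166, 142 and 113 in GLP1 (-2.65 ± 0.09), and the NK receptor gene *Ncr1* (-1.84 ± 0.13). *Prf1* lay at the fold limit (-1.03 ± 0.13) and was lost without GLP1 library 3. *Cd2* fell by 1.52.

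Erythroid genes were the cell type list with the highest median, 0.70. All 9 tested were higher past the FDR, against 36.6% of all genes, and 3 passed the fold limit, against 6.1%. *Slc4a1*, the anion exchanger of red cells (chr11:102348824-102366203, minus strand, GRCm38), had 15121, 15824 and 15044 normalized counts in WT and 44555, 42908 and 43428 in GLP1, a 2.85-fold higher mean (log2 fold change 1.51 ± 0.02, SE, edgeR adjusted p = 5.77e-38). *Ermap*, a membrane protein of erythroid cells, had 4521, 4497 and 4562 in WT and 12116, 12454 and 12198 in GLP1 (1.44 ± 0.03). For *Epor*, the erythropoietin receptor, the values were 815, 894 and 839 in WT and 2114, 1978 and 2028 in GLP1 (1.27 ± 0.05). The transcription factor genes *Gata1* and *Klf1* had values of 0.79 and 0.57, and *Tfrc*, which cycling cells of all kinds use to take up iron, 0.35. Summed over the list, WT held 2098 to 2187 CPM, GLP1 3894 to 3938 and Vehicle 1453 to 1468. In the direct tests, 7 of 9 were called higher in GLP1 than in Vehicle, 1 higher than in antiIL17A and 5 higher than in Combo, against 7.6%, 2.43% and 8.57% of all genes.

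**Figure D4:**
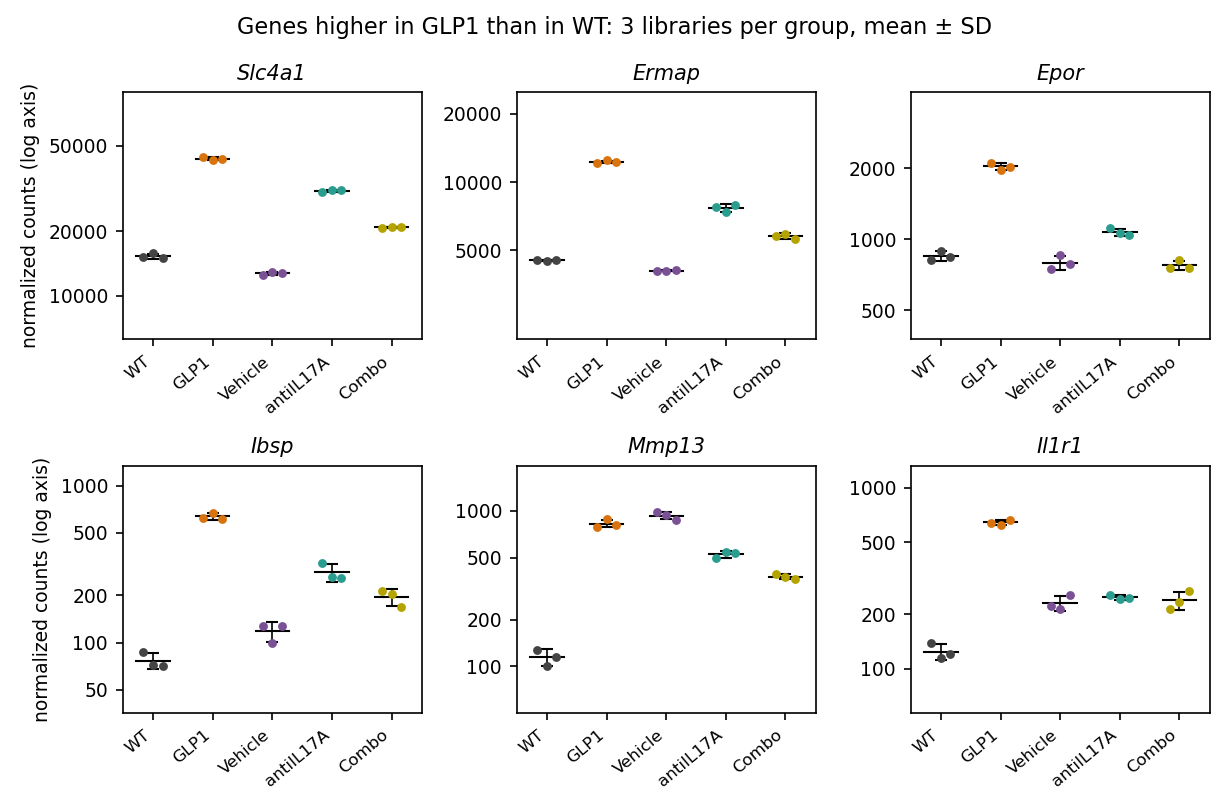
Normalized counts on a log axis for 3 erythroid genes (*Slc4a1*, *Ermap*, *Epor*) and 3 other genes higher in GLP1 than in WT, with points for the 3 libraries of a group and bars for mean ± SD. GLP1 is the highest group in all panels but *Mmp13*, where its mean of 829 lies near that of Vehicle (931).

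None of 10 megakaryocyte and platelet genes was called (median 0.47), with *Vwf* at 0.71 ± 0.09 (SE) and *Pf4* at -0.05 ± 0.06. Of 13 stem and progenitor genes (median -0.51, or -0.11 with at least 10 counts in every library), *Mecom* and *Hoxa9*, regulators of stem and progenitor cells, rose by 1.45 and 1.28, and *Cd48* and *Procr* fell by 1.54 and 1.29. The call of *Procr* was lost without GLP1 library 2 (-0.93). *Kit*, the stem cell factor receptor, had 2173, 2100 and 2130 normalized counts in WT and 3594, 3581 and 3575 in GLP1 (0.75 ± 0.03), against a Vehicle mean of 1316. Cell cycle genes were not called (median 0.30 over 15), and *Mki67*, made by dividing cells, had 16038, 16367 and 16978 in WT and 26755, 26809 and 26986 in GLP1 (0.71 ± 0.02).

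Of 12 stromal, endothelial and adipocyte genes, 3 collagen genes rose and 1 gene fell (median 0.35). *Col1a1* had 335, 354 and 350 normalized counts in WT and 953, 935 and 917 in GLP1 (log2 fold change 1.43 ± 0.06, SE), *Col1a2* had 319, 419 and 391 in WT and 1138, 1173 and 1076 in GLP1 (1.59 ± 0.07), and *Col3a1* rose by 2.14 ± 0.31. Other stromal genes were nearer to WT, with *Cxcl12* at 0.54 and *Lepr* at 0.12, and the endothelial gene *Pecam1*, which myeloid cells also carry, fell by 1.18. The adipocyte genes *Adipoq* (0.50), *Fabp4* (0.35) and *Cfd* (0.36) were not called. Summed over the list, WT held 196 to 202 CPM and GLP1 243 to 253, and the part of stromal cells in other differences was not tested.

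Immediate early and heat shock genes were lower, with 6 of 13 fallen (median log2 fold change -0.96). Past the FDR 12 were lower, against 38.1% of all genes. *Egr1*, induced within minutes of a stimulus, had 4389, 4136 and 4221 normalized counts in WT and 1786, 1790 and 1890 in GLP1 (-1.22 ± 0.03, SE). *Fos* had 12730, 12432 and 12213 in WT and 6182, 5920 and 6052 in GLP1 (-1.04 ± 0.03), and the chaperone genes *Hspa1a* and *Hspa1b*, near-identical copies whose reads cannot be split with certainty, fell by 1.63 and 2.18. *Atf3* and *Fosb* fell by 1.80 and 1.11. These genes also respond to handling of tissue and cells, and differences in harvest between groups were not tested.

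Metabolic lists held few calls. None of 13 glycolysis genes (median -0.04), 14 respiratory chain genes (median -0.06) and 12 fatty acid oxidation genes (median 0.04) was called. Over these and the 4 other lists with no edgeR call (both granule lists, megakaryocyte and cell cycle genes), 84 genes in all, DESeq2 called 0 too, and 35 were higher and 35 lower at an unadjusted edgeR p below 0.05. The share of all genes at that p is not given here, and 74.7% of them passed the stricter FDR. For glycolysis the Vehicle median against WT was 0.74, and *Hk3*, a hexokinase of myeloid cells, missed the fold limit in GLP1 at -0.99 ± 0.02 (SE), with 12398, 12978 and 12624 normalized counts in WT and 6265, 6424 and 6428 in GLP1. In cholesterol and fatty acid synthesis, 12 of 15 genes were higher past the FDR, against 36.6% of all genes. The list median was 0.51, and 1 of the 12 passed the fold limit. *Scd1*, a desaturase, fell by 1.08 ± 0.04. Of 13 lipid uptake and efflux genes (median -0.14), the lipase gene *Lipg* rose by 1.31 and the nuclear receptor gene *Nr1h3* fell by 1.62. *Lipg* had 69.3, 49.6 and 80.7 in WT and 158, 171 and 165 in GLP1, with a mean of 11119 in Vehicle.

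In the incretin and insulin list, 3 of 10 genes fell (median -0.06). *Dpp4*, the protease that degrades GLP-1 and that lymphocytes carry as CD26, had 1979, 1864 and 1951 normalized counts in WT and 365, 341 and 357 in GLP1 (log2 fold change -2.45 ± 0.06, SE, edgeR adjusted p = 1.02e-30), below the Vehicle mean of 1257. *Foxo1*, a transcription factor that insulin restrains and that B cell precursors need, fell from 1452, 1420 and 1409 to 433, 403 and 454 (-1.73 ± 0.06). *Irs1*, 30.9% of whose exons overlap another gene, had 39.8, 27.8 and 29.1 in WT and 15, 8.76 and 6.13 in GLP1 (-1.68 ± 0.38). *Insr* and *Igf1r* were 0.48 and 0.55 above WT. In the Shp2 and Ras-ERK list of 13 (median 0.28), *Ptpn11*, which encodes SHP2, had 3395, 3454 and 3528 in WT and 4836, 4867 and 4762 in GLP1 (0.48 ± 0.03), and counts do not tell its donor allele from the normal one. *Gab2*, a docking protein of SHP2, rose from 954, 1066 and 989 to 2158, 2199 and 2242 (1.13 ± 0.05), and *Dusp5*, an ERK phosphatase, fell by 1.24.

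**Figure D5:**
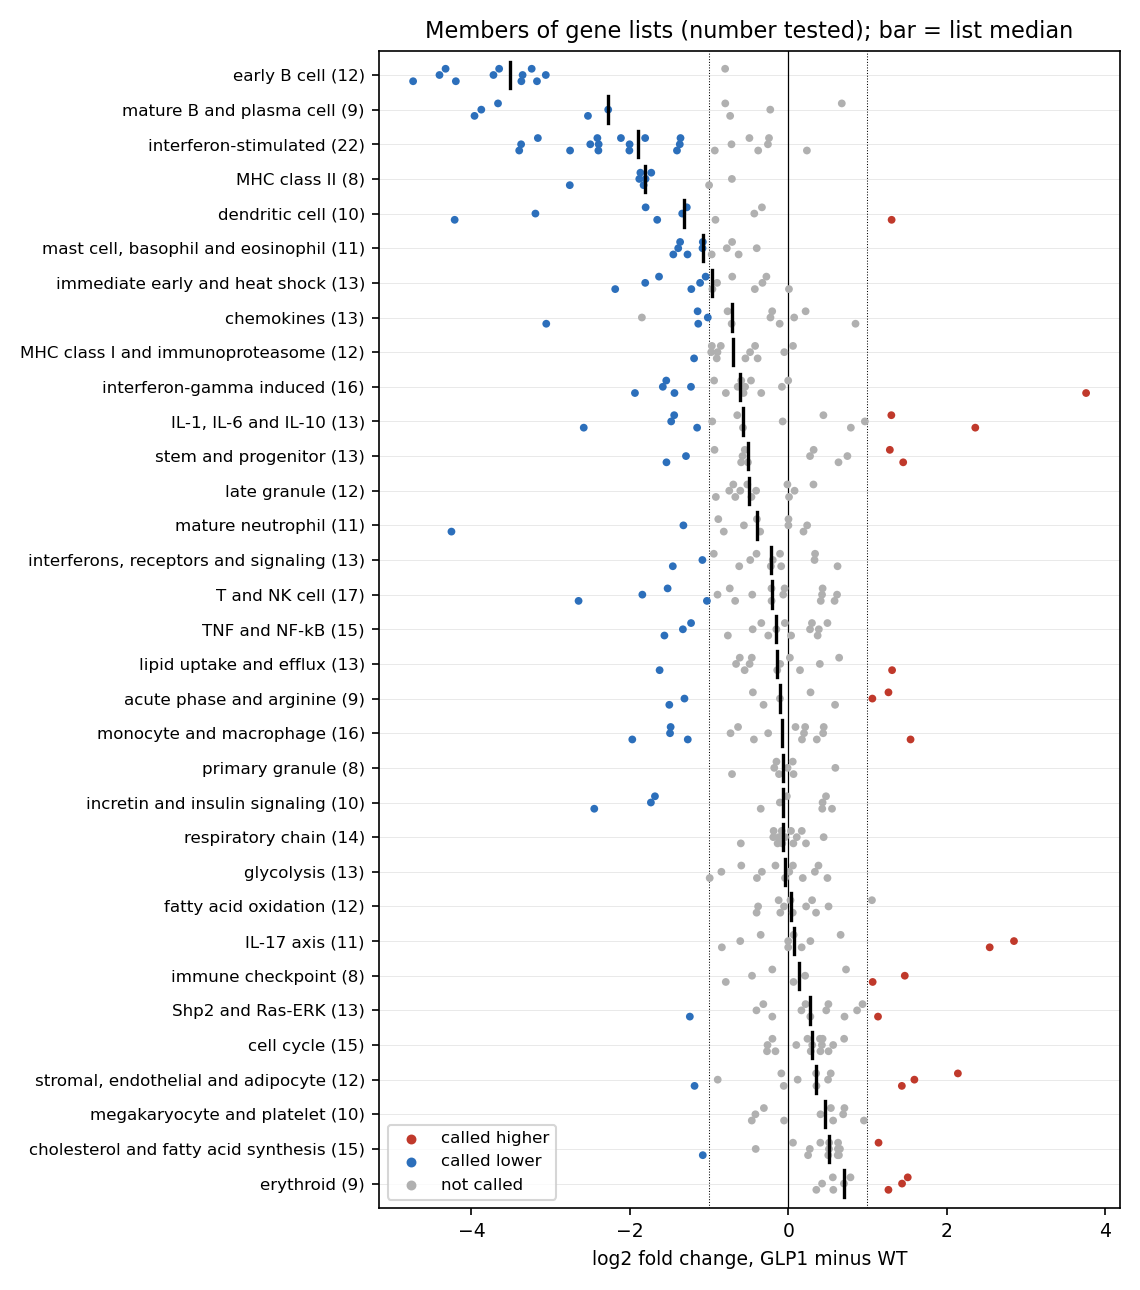
Log2 fold change of GLP1 minus WT for each tested member of 33 gene lists, ordered by the list median (black bar), with the number of members tested in parentheses and dotted lines at 1 and -1. Early B cell genes (median -3.51) and interferon-stimulated genes (-1.90) lie furthest to the left together with mature B and MHC class II genes, and erythroid genes (0.70) lie at the right end.

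Where the 6 libraries averaged 100 counts or more, the 12 largest called increases ranged from 2.18 to 4.45 on the log2 scale. *Tex11*, a meiosis gene on the X chromosome, had 13, 9.92 and 10.8 normalized counts in WT and 227, 280 and 240 in GLP1 (4.45 ± 0.22, SE), with means of 67.2 in Vehicle and 0.348 in Combo. *Ibsp*, a sialoprotein of bone matrix, had 86.6, 71.4 and 71.1 in WT and 620, 674 and 618 in GLP1 (3.05 ± 0.12), above the Vehicle mean of 118. *Tspan15*, a tetraspanin that guides the protease ADAM10, had 111, 134 and 111 in WT and 1044, 1076 and 996 in GLP1 (3.13 ± 0.09). *Entpd3*, which degrades extracellular nucleotides, rose by 3.48, and its Vehicle mean of 567 was above the GLP1 mean of 379. *Stfa1* and *Stfa2* (2.39 and 2.80), protease inhibitors of neutrophils, belong to a family of near-identical copies, so their counts are uncertain, and *Mt2* (2.75), a metallothionein, shares 73.5% of its exon length. *Lrrc75b*, *Adamtsl4* and *Arhgef40* rose by 2.43, 2.38 and 2.18, and *Mmp13* and *Il1r1* are given above.

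The 12 largest decreases ranged from -6.18 to -4.21. *Tmem132e* had 245, 269 and 263 normalized counts in WT and 2.81, 4.38 and 3.07 in GLP1 (log2 fold change -6.18 ± 0.29, SE), and *Smtnl2* had 264, 253 and 264 in WT and 0, 4.38 and 7.15 in GLP1 (-6.06 ± 0.30). Both were also low in Vehicle, with means of 20.6 and 23.7. *Rag1*, *Rag2* and *Vpreb3* are among the 12, with *Cd72* (-4.24), an inhibitory receptor of B cells that shares 41.6% of its exon length, and *Myl4*, *Lgr5* and *Rsph9* (-4.36, -4.63 and -4.33). *Ifi27l2a*, an interferon-induced gene outside the list above, had 4663, 4895 and 5096 in WT and 257, 273 and 249 in GLP1 (-4.23 ± 0.05), against a Vehicle mean of 10713. *Ptgs2* and *Cd209a* complete the 12.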

How the data were processed

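RNA of whole BM was sequenced as poly(A)-selected, unstranded, paired-end libraries. Per the labels and the study's methods, reads were aligned with STAR 2.7.2a to mm10 (GRCm38), and the authors deposited featureCounts 2.0.1 counts per gene, not normalized, with reads over overlapping genes counted for each. The 13353 genes of the table were tested in R 4.3.3 with edgeR 4.0.16 (TMM, filterByExpr, robust quasi-likelihood fit of 15 libraries, Benjamini-Hochberg adjustment), and 0 genes were removed by the filter. Each SE is the log2 fold change divided by the square root of its F statistic. A group with at most 3 counts in every library gives a bound on the fold, and this floor covers counting error only. Named genes were the 12 largest called changes in each direction with a mean of at least 100 counts, up to 4 members per list with the largest changes past the FDR, and genes the study names. Other members named in the text were chosen after their values were seen. The comparison and the gene lists were chosen with earlier results of these data known. Normalization, filter, threshold, tool (DESeq2 1.42.0), replicate block and each library left out were varied. The main fit, DESeq2, its size factors in edgeR, the replicate block and the test against the fold limit were tried on simulated data. The other settings were not. Exon overlaps come from GENCODE M21 and promoters from RefSeq. Results of a few genes are not reported here.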

Additional observations from a re-analysis of the deposited data

How the results depend on the processing

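The number of genes called between GLP1 and WT was 1965 and stayed between 1942 and 1994 when 1 library was left out, with 791 to 856 higher and 1124 to 1158 lower. It was 1961 with DESeq2 size factors, 1972 with upper-quartile factors, 1957 with DESeq2 (1944 of them shared) and 1895 with only the 6 libraries compared. A minimum of 10 counts in every library left 12448 genes and 1487 calls. Without the fold limit 9970 genes were called (4889 higher, 5081 lower), and with a test against a log2 fold change of 1 there were 1088 (385 higher, 703 lower), as these thresholds are looser and stricter by construction. Upper-quartile factors shifted the median of all genes to -0.037 and turned the difference of *Atp5a1* between GLP1 and Combo from -0.08 to 0.01, and the cause was not tested.

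Replicate numbers did not pair the samples, since same-numbered GLP1 and WT libraries deviated together with correlations of -0.036, -0.084 and 0.013 over 10577 genes. With the replicate block 1962 genes were called.

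Calls on few counts or near the fold limit depended on single libraries. *Nos2* was lost without WT library 1, WT library 2 or GLP1 library 1, *Ccl22* without WT library 3, GLP1 library 1 or GLP1 library 2, *Slc7a2* and *Havcr2* without GLP1 library 1, *Il17f* and *Procr* without GLP1 library 2, and *Prf1* without GLP1 library 3. *Hk3* (-1.01) and *Spred1* (1.01) passed the limit without WT library 1, and *Il6* without WT library 3 (1.14) or GLP1 library 2 (1.19). *Hk3* (-1.02) and, narrowly, *Psmb10* passed it under upper-quartile factors. The median of the acute phase and arginine list turned from -0.10 to 0.09 with the stricter count minimum and to 0.01 without WT library 3. Among the 34 list medians, 2 changed sign with the stricter minimum and 1 with only the 6 libraries compared. Leaving out WT library 2, WT library 3 or GLP1 library 1 changed the sign of 1 each. These counts include the acute phase and arginine list. The stricter minimum also moved the chemokine median to -0.21 and the stem and progenitor median to -0.11.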

Other observations

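The 5 genes named in this paragraph lie outside the lists and were chosen after their values were seen, as higher in GLP1. *Ank1*, which anchors the membrane skeleton of red cells, had 2904, 3240 and 2912 normalized counts in WT and 8381, 8165 and 8487 in GLP1 (log2 fold change 1.47 ± 0.03, SE). *Tmod1*, which caps actin filaments, had 416, 413 and 406 in WT and 1304, 1243 and 1306 in GLP1 (1.64 ± 0.07), and the Rh-associated glycoprotein gene *Rhag* and the transcription factor gene *Gfi1b* rose by 1.28 and 1.6. *Car1*, a carbonic anhydrase of red cells, had 10785, 11068 and 10814 in WT and 32509, 32785 and 32453 in GLP1 (1.58 ± 0.02).

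Another 4 genes were also chosen after their values were seen. *Fkbp5*, a gene that glucocorticoids induce, had 2053, 2075 and 2024 normalized counts in WT and 7576, 7688 and 7644 in GLP1 (log2 fold change 1.90 ± 0.03, SE), with a mean of 11352 in Vehicle. *Per1*, a gene of the daily clock, had 1073, 1140 and 1195 in WT and 4371, 4375 and 4321 in GLP1 (1.94 ± 0.04), with a mean of 8949 in Vehicle. *Arntl*, a core gene of that clock, had 946, 895 and 918 in WT and 228, 269 and 244 in GLP1 (-1.89 ± 0.09), and it did not pass the FDR between GLP1 and Vehicle (0.19 ± 0.10). *Dbp*, a gene under clock control, was past the FDR below the fold limit (-0.57 ± 0.16). Times of harvest are not given in the sources used here.

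The next 3 genes were chosen in the same way, as higher in GLP1. *Spp1*, which encodes osteopontin, had 719, 651 and 702 normalized counts in WT and 2804, 3040 and 2929 in GLP1 (log2 fold change 2.08 ± 0.04, SE), below its Vehicle mean of 3937. *Postn*, which encodes periostin, had 13.9, 9.92 and 21.5 in WT and 127, 117 and 99.1 in GLP1 (2.93 ± 0.24). For *Igfbp5* the values were 422, 438 and 419 in WT and 1386, 1316 and 1236 in GLP1 (1.62 ± 0.07), with a Vehicle mean of 418.

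Below the count minimum of the named genes, *Gpr12*, an orphan receptor gene, had 91.8, 81.3 and 66.8 normalized counts in WT and 0 in each GLP1 library, at least 28.2-fold lower against the floor of 3 counts per library. *Trnp1* had 0.866, 0 and 1.08 in WT and 185, 157 and 196 in GLP1, at least 61.1-fold higher against the same floor.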
